A study of Mus musculus with 52 samples.

Results

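Lyrm7 and 5 partner genes of mitochondrial complex III were followed in brain tissue of mice with and without the microRNA gene for miR-146a. The 6 genes were Lyrm7, Uqcrfs1, Bcs1l, Ttc19, Uqcc1 and Uqcc2, taken by name from the 48526 gene IDs that each of the 3 deposited tables lists. Lyrm7 was selected on its measured KO and WT values in these same libraries, so its difference between genotypes is given below as a description with no test. The other 5 genes were chosen for their place in the same pathway, with earlier results of these data known.

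The series held 52 libraries of poly-A RNA from bulk tissue. The KO libraries came from animals labelled miR-146a KO: 5 from whole cortex at embryonic day 14 (E14), 12 taken 30 days after birth (P30), 4 each from hippocampus, amygdala and frontal cortex, and 10 taken at 60 days (P60), 2 from hippocampus and 4 each from amygdala and frontal cortex. The WT libraries numbered 4 from E14 cortex, 4 from each region at P30 and 3 from each region at P60. The series' design text names a sensory cortex and a stage P6 where the labels of the samples have frontal cortex and P60. The labels were followed, so the identity of the frontal cortex and P60 groups rests on them. The labels name the tissue, age and genotype but not the strain or the form of the allele. The library kit selects poly-A RNA, which the microRNA and its short hairpin do not carry, and the Mir146 gene had 1 read in 1 WT library of P30 hippocampus and 0 in the other 51, so the genotype labels could not be checked from the deleted gene.

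Complex III, the ubiquinol-cytochrome c reductase of the inner mitochondrial membrane, passes electrons from ubiquinol to cytochrome c and pumps protons. It is built around the mitochondrially encoded cytochrome b, and the Rieske iron-sulfur protein, the product of Uqcrfs1, enters last. UQCC1 and UQCC2 bind newly made cytochrome b at the start of assembly. LYRM7 holds the Rieske protein in the matrix, where a conserved leucine-tyrosine-arginine motif of this protein family meets the iron-sulfur delivery machinery, and BCS1L, an AAA-type ATPase, moves the folded Rieske protein across the membrane. TTC19 binds the finished complex and helps to clear fragments of the Rieske protein. In humans, variants in LYRM7, BCS1L, TTC19 and UQCC2 cause complex III deficiency, and those in LYRM7 are known for damage to brain white matter.

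The sequence that is missing in the KO animals and the stretches of the 6 genes that could be set against it are shown here. The mature strand of miR-146a and that of its relative miR-146b, from RefSeq on GRCm38.p6, are printed with bases 2 to 8, the seed, in capitals. These mature strands lie on chr11:43374435-43374456, minus strand, and chr19:46342790-46342811, plus strand, and the seeds are the same.
mmu-miR-146a-5p: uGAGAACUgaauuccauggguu
mmu-miR-146b-5p: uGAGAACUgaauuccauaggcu

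A match to the seed was searched on the sense strand of the annotated 3′ untranslated region (UTR) of each gene as AGTTCTC (pairing with bases 2 to 8) or GTTCTCA (pairing with bases 2 to 7, followed by an A). Of the 6 genes only Uqcrfs1 held one, the motif GTTCTCA, found on chr13:30540440-30540446, minus strand of GRCm38, base 285 of a UTR of 423 bases. The UTRs searched without a match were 2773 bases in Lyrm7, 2283 in Ttc19, 1496 in Uqcc1, 372 in Bcs1l and 50 in Uqcc2. Of all 21015 genes with an annotated 3′ UTR, 18.2% held either motif. The Uqcrfs1 site is printed with the matching bases in capitals.
Uqcrfs1 site: gttgtattggtGTTCTCAtctaaatttct

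The promoter of Lyrm7 is printed because Lyrm7 was the only one of the 6 genes with KO libraries wholly apart from WT. The window is chr11:54860548-54860847, minus strand, 300 bases from RefSeq on GRCm38.p6, and the capitals mark its CCAAT motifs, both read as ATTGG on this strand.
Lyrm7 promoter: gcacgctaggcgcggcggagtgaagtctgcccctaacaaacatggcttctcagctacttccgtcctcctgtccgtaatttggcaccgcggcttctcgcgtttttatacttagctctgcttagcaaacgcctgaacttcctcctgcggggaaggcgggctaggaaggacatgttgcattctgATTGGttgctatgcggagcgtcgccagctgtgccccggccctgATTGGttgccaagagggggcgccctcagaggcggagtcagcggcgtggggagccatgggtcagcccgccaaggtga

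CCAAT, searched on both strands, was in 37.9% of 27025 promoters of the same length. Lyrm7 held 2 copies and Uqcc1 held 1. CGGAAG was in 17.2% of all promoters and once each in those of Lyrm7, Bcs1l and Uqcc1.

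The genes lie on 5 chromosomes, with positions from GENCODE M21 on GRCm38. Lyrm7 (ENSMUSG00000020268) spans chr11:54826866-54860916 on the minus strand, 11.5 Mb from Mir146 on the same chromosome. Ttc19 (ENSMUSG00000042298) is also on this chromosome, at chr11:62281473-62328451, 18.9 Mb from Mir146. Uqcrfs1 (ENSMUSG00000038462) spans chr13:30540308-30545362, Bcs1l (ENSMUSG00000026172) chr1:74588289-74592443, Uqcc1 (ENSMUSG00000005882) chr2:155846894-155930310 and Uqcc2 (ENSMUSG00000024208) chr17:27122663-27133916. Lyrm7 overlaps the small nuclear RNA gene Gm25426, and Ttc19 overlaps Ncor1 on the opposite strand and the pseudogene Gm12275. The kit was strand-specific, but the sources used here do not say whether counting used the strand. If it did not, reads of such pairs cannot be told apart. Uqcc2 shares 92.3% identity over 405 bases with the pseudogene Gm7436 on chromosome 9, and bases 2694 to 2867 of the Lyrm7 transcript are at least 90% identical to stretches of 447 other genes, so these counts are uncertain to that degree.

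Marker sums set the hippocampus and embryonic cortex libraries apart as labelled. Those of the frontal cortex stood apart from the other regions of P30 and P60 but not from E14 cortex, and those of the amygdala overlapped other tissues. The summed level of 7 hippocampal markers (Prox1, Dsp, C1ql2 and others) was 429 to 1165 CPM (read counts scaled to a fixed library total) in the 13 hippocampus libraries, against 74.7 to 216 CPM in the 30 amygdala and frontal cortex libraries, and that of 7 frontal cortex markers was 1067 to 1527 CPM in frontal cortex, against 315 to 801 CPM in the other regions of P30 and P60. Embryonic cortex markers summed to 1104 to 1517 CPM in the E14 libraries, against 119 to 438 CPM at P30 and P60. The 7 amygdala markers summed to 178 to 567 CPM in the 15 amygdala libraries, against 126 to 233 CPM in the 28 of hippocampus and frontal cortex. The overlap came from replicate 3 of WT P30 amygdala. In E14 cortex these markers summed to 513 to 723 CPM. The 7 frontal cortex markers summed there to 641 to 1317 CPM, which overlapped the frontal cortex libraries. A pair of WT libraries stood apart on more than 1 marker list. In replicate 3 of WT P30 amygdala the 7 amygdala markers summed to 178 CPM, against 471 to 567 CPM in the other 3 libraries, and 6 myelin markers to 6443 CPM, against 1669 to 2464 CPM in those 3. In replicate 3 of WT P30 hippocampus 6 choroid plexus markers summed to 5461 CPM, against 41.7 to 196 CPM in the other 3, and 6 neuronal markers to 5030 CPM, against 6489 to 8207 CPM. Hippocampal markers of that library summed to 429 CPM, against 620 to 872 CPM, and myelin markers to 17586 CPM, against 5151 to 12251 CPM. Results that include this pair are given with and without it where they changed. Choroid plexus markers were also high in single libraries of other groups, KO ones among them, which were not part of this pair. They summed to 1232 CPM in WT P30 amygdala replicate 1 (group median 38.2 CPM) and 1183 CPM in KO P30 hippocampus replicate 4 (group median 105 CPM). In KO P30 frontal cortex replicate 2 they summed to 704 CPM (group median 26.2 CPM). Recovered depth was 2933026 to 9469214 reads per library. The sexes were unequal between genotypes. At E14 there were 2 females and 3 males among the KO embryos and 3 females and 1 male among the WT embryos. Each P30 KO group had 3 females and 1 male, and each P30 WT group 1 female and 3 males. At P60 KO amygdala and KO frontal cortex had 2 females and 2 males each, and KO hippocampus 1 of each. Each P60 WT group had 1 female and 2 males.

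Lyrm7, the chaperone of the Rieske protein, was higher in KO than in WT tissue in all 7 settings of age and region. In E14 cortex it had 17.46, 16.90, 17.49, 15.02 and 17.42 CPM in the KO libraries, against 8.18, 6.70, 8.27 and 6.78 CPM in the WT libraries. No KO library of the embryo was below any WT library, and the group means were 16.9 ± 1.06 CPM in KO and 7.48 ± 0.859 CPM in WT (SD, n = 5 and 4), a ratio of 2.25. The log2 difference, KO minus WT, was 1.08 (SE 0.101).

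At P30 the same separation was present in each region. In the amygdala Lyrm7 had 22.64, 22.03, 21.03 and 18.84 CPM in KO, against 9.99, 9.86, 9.47 and 7.55 CPM in WT. In the frontal cortex it had 21.98, 18.71, 17.30 and 22.38 CPM in KO, against 8.20, 11.98, 10.02 and 8.22 CPM in WT. In both regions the KO libraries all lay above the WT libraries, with KO to WT ratios of the means of 2.29 and 2.09. In the hippocampus it had 26.96, 16.92, 27.08 and 23.49 CPM in KO, against 8.75, 8.14, 5.34 and 10.55 CPM in WT. The hippocampus held the widest gap, a ratio of 2.88 and a log2 difference of 1.43 (SE 0.161), and its lowest WT value, 5.34 CPM, was the library rich in choroid plexus markers. Myelin markers in the P30 hippocampus summed to a median of 6687 CPM in KO and 11530 CPM in WT, and their part in the difference was not tested. Without the pair of WT libraries that stood apart, the log2 difference was 1.26 in the hippocampus and 1.13 in the amygdala, where it was 1.12 with them.

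At P60 the levels in adult tissue had the same order. In the amygdala Lyrm7 had 19.75, 20.48, 18.35 and 20.49 CPM in KO, against 9.09, 9.86 and 7.09 CPM in WT. In the frontal cortex it had 18.15, 21.70, 21.97 and 22.64 CPM in KO, against 10.98, 9.71 and 10.43 CPM in WT. All KO libraries of both regions lay above all WT libraries, with ratios of 2.28 and 2.04. In the hippocampus the 2 KO libraries had 21.59 and 19.85 CPM, against 10.71, 9.05 and 11.53 CPM in WT, a ratio of 1.99 with no overlap.

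**Figure D1:**
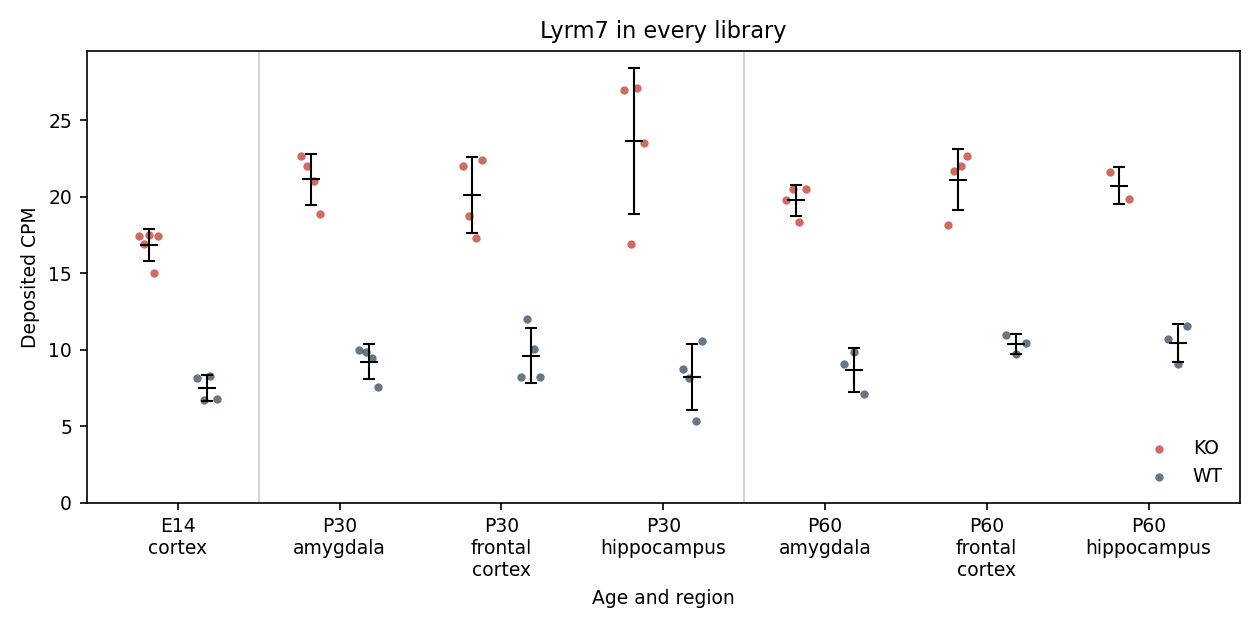
Lyrm7 in every library, in CPM on the vertical axis, by age and region, with KO left of WT; points are libraries, the horizontal stroke is the group mean and bars are its SD. In each of the 7 settings the lowest KO library was 1.44 to 1.89 times the highest WT library.

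In these 7 comparisons the share of all tested genes called between KO and WT (limma, Benjamini-Hochberg adjusted p under 0.05, in either direction) was small. It was 0.0489% of 18397 genes in E14 cortex. Of 18985 genes at P30 it was 0.0263% in amygdala, 0.0158% in frontal cortex and 0.0316% in hippocampus. Of 19256 genes at P60 it was 0.0208% in amygdala, 0.0312% in frontal cortex and 0.0208% in hippocampus. Separation of all KO libraries above all WT libraries, the pattern of Lyrm7, occurred in 0.647% of tested genes in E14 cortex and in up to 6.15% in P60 hippocampus, where the groups were smallest. These shares are over all tested genes, and Lyrm7 itself is among the genes counted. Since Lyrm7 was chosen for this difference, nothing further is read from the shares.

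By sex, the ratio of KO to WT means of Lyrm7 ran from 1.61 to 2.91 among females and from 1.87 to 2.86 among males over the 7 settings. Most of these ratios had only 1 library on at least 1 side. Lyrm7 rested on 25 to 203 reads per library. Its coefficient of variation within a group had a median of 11.8% over the 14 groups, where counting alone would give a median of 10.4%. The widest spread within a group, 26.4%, was that of WT P30 hippocampus.

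The other 5 genes showed no such separation. For each of them the KO and WT libraries overlapped in all 7 settings. limma called 0 of these 5 genes in any setting, where 0.0158% to 0.0489% of all tested genes were called. Of the 35 tests 1 had an unadjusted p under 0.05, and voom on the recovered reads gave 0 calls. These are bulk samples, in which fewer cells of a type and less RNA per cell cannot be told apart.

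Uqcrfs1, the Rieske protein that LYRM7 binds and the only one of the 6 with a seed match, had 19.97, 24.83, 32.17, 23.64 and 19.94 CPM in KO E14 cortex, against 19.70, 24.83, 27.08 and 22.94 CPM in WT. Its log2 difference there was 0.01 (SE 0.142, adjusted p = 1.00). At P30 the largest difference of Uqcrfs1 was in the hippocampus, with 20.06, 20.09, 15.08 and 16.96 CPM in KO, against 16.60, 19.84, 23.30 and 21.84 CPM in WT. That difference was −0.17 (SE 0.123, adjusted p = 0.702), and the groups overlapped over most of their range. Over the 7 settings the ratio of KO to WT means ran from 0.885 to 1.11, with 95% intervals for the fold between 0.747 and 1.31.

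Bcs1l, the translocase of the Rieske protein, had 20.09, 20.92, 24.32, 22.04 and 22.69 CPM in KO E14 cortex, against 20.85, 20.98, 18.38 and 17.00 CPM in WT. This was its largest difference in size, 0.18 on the log2 scale (SE 0.0927, unadjusted p = 0.0732, adjusted p = 1.00), and 3 of the 5 KO libraries were above the highest WT library. Over the 7 settings its ratio of means ran from 0.911 to 1.14, with intervals for the fold between 0.758 and 1.32.

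Ttc19, which acts on the finished complex, was the most precisely measured of the 6, with 394 to 981 reads per library and a median coefficient of variation of 5.22%. In E14 cortex it had 70.08, 65.64, 67.26, 77.69 and 80.57 CPM in KO, against 68.66, 62.40, 66.95 and 63.20 CPM in WT. The difference was 0.14 (SE 0.0756, adjusted p = 1.00) and the groups overlapped. Its ratio of means ran from 0.972 to 1.11, and the intervals for the fold lay between 0.875 and 1.24, the narrowest of the 6 genes.

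Uqcc1 and Uqcc2 serve the first step, the stabilisation of cytochrome b. Uqcc1 had 19.17, 22.84, 21.15 and 18.46 CPM in KO P30 frontal cortex, against 17.79, 19.06, 16.15 and 17.56 CPM in WT. This was its largest difference, 0.20 (SE 0.109, adjusted p = 1.00), and 1 of the 4 WT libraries was above the lowest KO library. Uqcc2 had 21.68, 26.01, 24.31 and 20.33 CPM in KO P60 amygdala, against 17.90, 17.13 and 22.38 CPM in WT, a difference of 0.26 (SE 0.113). It was the test of the 35 with an unadjusted p under 0.05, at 0.0315, and its adjusted p was 0.999. The ratios of means ran from 0.967 to 1.16 for Uqcc1 and from 0.913 to 1.21 for Uqcc2, with intervals for the fold between 0.770 and 1.34 and between 0.767 and 1.41.

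**Figure D2:**
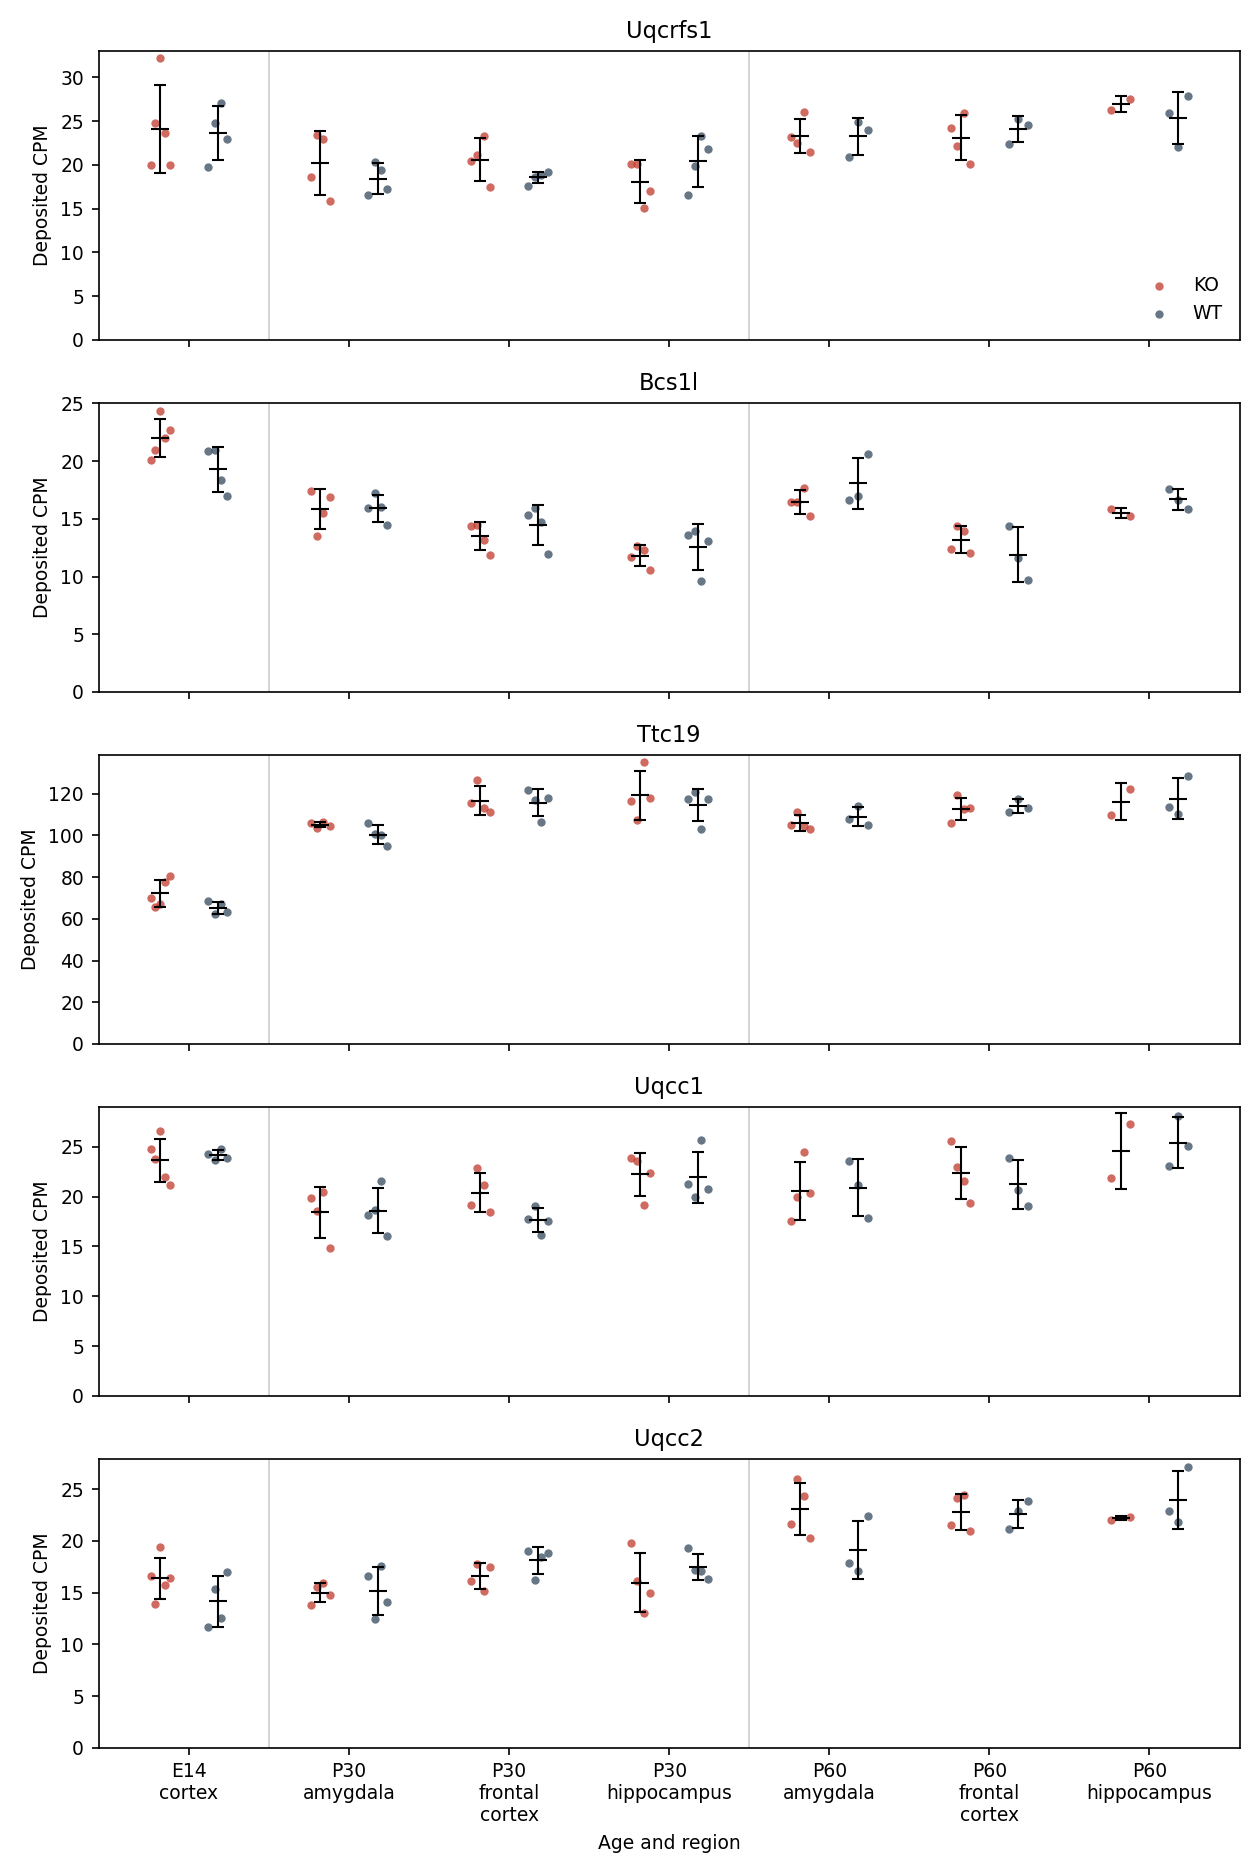
Uqcrfs1, Bcs1l, Ttc19, Uqcc1 and Uqcc2 in every library, in CPM on the vertical axis, by age and region, with KO left of WT; points are libraries, the horizontal stroke is the group mean and bars are its SD. The KO and WT points overlap in every setting for all 5 genes.

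**Figure D3:**
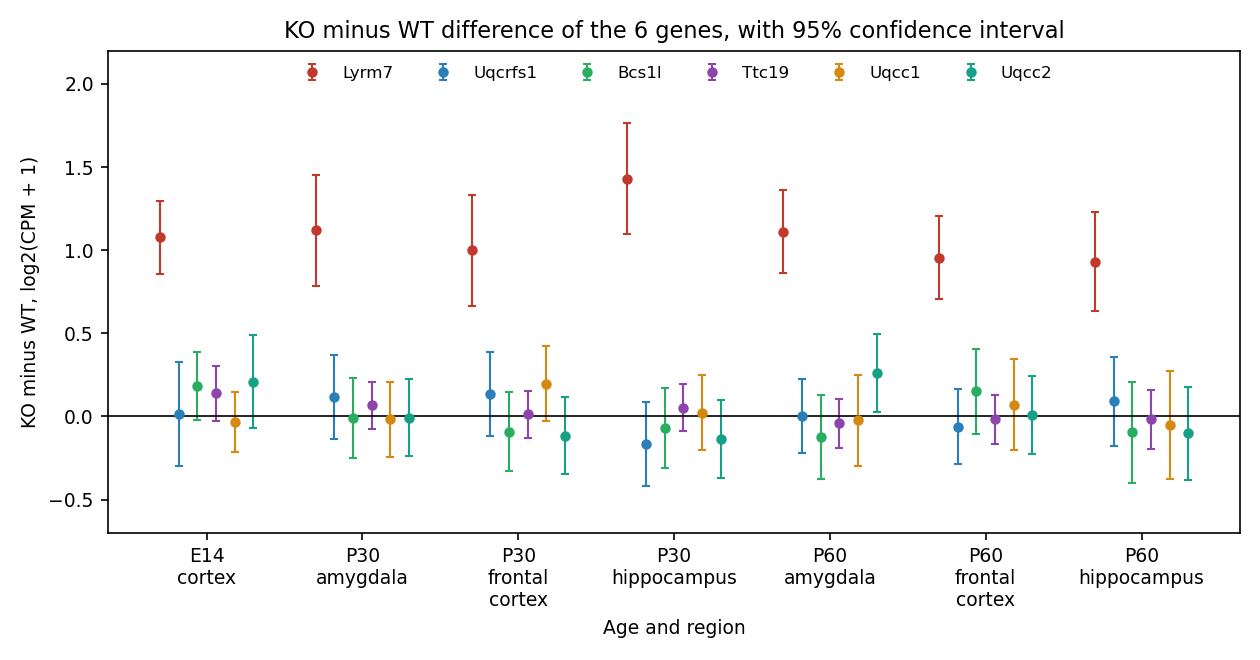
KO minus WT differences on the log2(CPM + 1) scale for the 6 genes in the 7 settings; points are limma estimates and bars are 95% intervals. Lyrm7 lies between 0.93 and 1.43, while the other 5 genes lie between −0.17 and 0.26.

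Whether the KO minus WT difference itself varied among regions was tested for the 5 genes at each age with limma's F test. At P30 and at P60 it was called for 0 of the 5, with 0 at an unadjusted p under 0.05 and 0 calls by voom. Among all tested genes the share called was 0% at P30 and 0% at P60, with 871 of 18985 and 415 of 19256 genes at an unadjusted p under 0.05. The values closest to the threshold were those of Uqcrfs1 at P30 (unadjusted p = 0.173) and of Uqcc2 at P60 (unadjusted p = 0.118).

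The regions were compared next, over KO and WT libraries together with equal weight for each genotype, a contrast that played no part in the choice of Lyrm7. Lyrm7 did not differ detectably between regions at either age. At P30 its log2 differences were −0.01 (SE 0.114) for hippocampus minus frontal cortex, 0.01 for amygdala minus frontal cortex and 0.02 for amygdala minus hippocampus, with adjusted p of 0.962, 0.939 and 0.899. The intervals of these 3 differences all lay within 0.26 of 0 on the log2 scale. At P60 the differences were −0.01, −0.16 and −0.15 in the same order, with adjusted p of 0.951, 0.150 and 0.233. Other members did differ: 1, 1 and 3 of the 6 were called at P30 in the same order of comparisons, where 43.3%, 37.3% and 44.1% of all tested genes were, and 1, 1 and 0 at P60, where 32.8%, 31.3% and 28.9% of all tested genes were. The shares of members called were near or below these background shares. In the comparison with 0 calls, 2 members had an unadjusted p under 0.05 and voom called 0.

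Bcs1l changed most between regions. At P30 it was higher in the amygdala than in the hippocampus by 0.36 (SE 0.0820, adjusted p = 0.00081). The KO libraries had 17.39, 13.52, 15.52 and 16.90 CPM in the amygdala, against 11.69, 12.66, 12.34 and 10.58 CPM in the hippocampus, and the WT libraries 15.91, 17.26, 16.01 and 14.46 CPM in the amygdala, against 13.57, 13.92, 9.62 and 13.08 CPM in the hippocampus. In each genotype all amygdala libraries lay above all hippocampus libraries. The share of all tested genes with such an order between regions is not given here, so nothing further is read from it, here or below. At P60 Bcs1l was higher than in the frontal cortex both in the amygdala, by 0.44 (SE 0.0860, adjusted p = 0.00068), and in the hippocampus, by 0.35 (SE 0.0947, adjusted p = 0.00799). The KO libraries of P60 had 16.48, 16.42, 17.71 and 15.21 CPM in the amygdala, 15.84 and 15.23 CPM in the hippocampus, and 12.37, 14.38, 13.95 and 12.06 CPM in the frontal cortex. The WT libraries had 16.62, 16.97 and 20.61 CPM, 17.61, 16.59 and 15.83 CPM, and 14.41, 11.57 and 9.69 CPM in these 3 regions. In both genotypes the frontal cortex libraries were the lowest, with no overlap. The hippocampus was thus low in Bcs1l beside the amygdala at P30 but not at P60, where the difference between them was 0.09 (SE 0.0947, adjusted p = 0.523), and no test across ages was made since the tables were normalised separately.

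Ttc19 was lower in the P30 amygdala, with differences of −0.17 from the frontal cortex (SE 0.0488, adjusted p = 0.00626) and −0.18 from the hippocampus (SE 0.0488, adjusted p = 0.00369). In KO it had 105.73, 103.54, 106.54 and 104.68 CPM in the amygdala, against 115.76, 126.57, 113.31 and 111.04 CPM in the frontal cortex and 116.48, 107.32, 135.08 and 117.72 CPM in the hippocampus. In WT the 4 amygdala libraries ranged from 94.94 to 105.99 CPM, against 121.58, 116.95, 106.31 and 117.96 CPM in the frontal cortex and 117.30, 120.81, 103.02 and 117.24 CPM in the hippocampus. The KO amygdala libraries were below all others of that genotype, and in WT the amygdala overlapped the hippocampus, whose replicate 3 was low. At P60 the same 2 differences were −0.08 and −0.12, with adjusted p of 0.264 and 0.118.

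Uqcc1 was higher in the P30 hippocampus than elsewhere. Amygdala minus hippocampus was −0.25 (SE 0.0773, adjusted p = 0.0114), with 19.88, 18.53, 20.41 and 14.80 CPM in KO amygdala against 23.91, 23.53, 19.20 and 22.33 CPM in KO hippocampus, and 18.16, 18.65, 21.52 and 16.06 CPM in WT amygdala against 21.25, 19.99, 25.65 and 20.80 CPM in WT hippocampus. Hippocampus minus frontal cortex was 0.21 (SE 0.0773, adjusted p = 0.0329). The highest WT hippocampus value, 25.65 CPM, was that of replicate 3, the library rich in choroid plexus markers, and without the pair of libraries that stood apart the difference from the frontal cortex was 0.17 and no longer called. It also lost its call when any 1 of 6 libraries was left out, replicates 1 and 4 of KO frontal cortex, replicate 3 of WT frontal cortex, replicates 1 and 2 of KO hippocampus and replicate 3 of WT hippocampus. Uqcc2 missed the threshold for amygdala minus frontal cortex at P30, at −0.19 (SE 0.0796, adjusted p = 0.0583), and was called, at −0.23, without WT amygdala replicate 3. Uqcrfs1 was called in no region comparison, and its differences ran from −0.16 to 0.14.

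Among WT libraries alone, where fewer animals enter, the only call that stood was that of Bcs1l in the P60 amygdala against the frontal cortex. The differences there were 0.33 for Bcs1l in amygdala minus hippocampus at P30 and 0.47 for Bcs1l in hippocampus minus frontal cortex at P60, and −0.20 for Ttc19 in amygdala minus frontal cortex at P30, close to the values over both genotypes. The labels do not say whether regions with the same number came from the same animal. At P30 and P60, libraries of the same genotype and number had the same assigned sex in every region, as they would if they did. These tests treat libraries as separate and take no account of such pairing. The settings of an age may therefore not be independent of each other, for Lyrm7 as well.

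**Figure D4:**
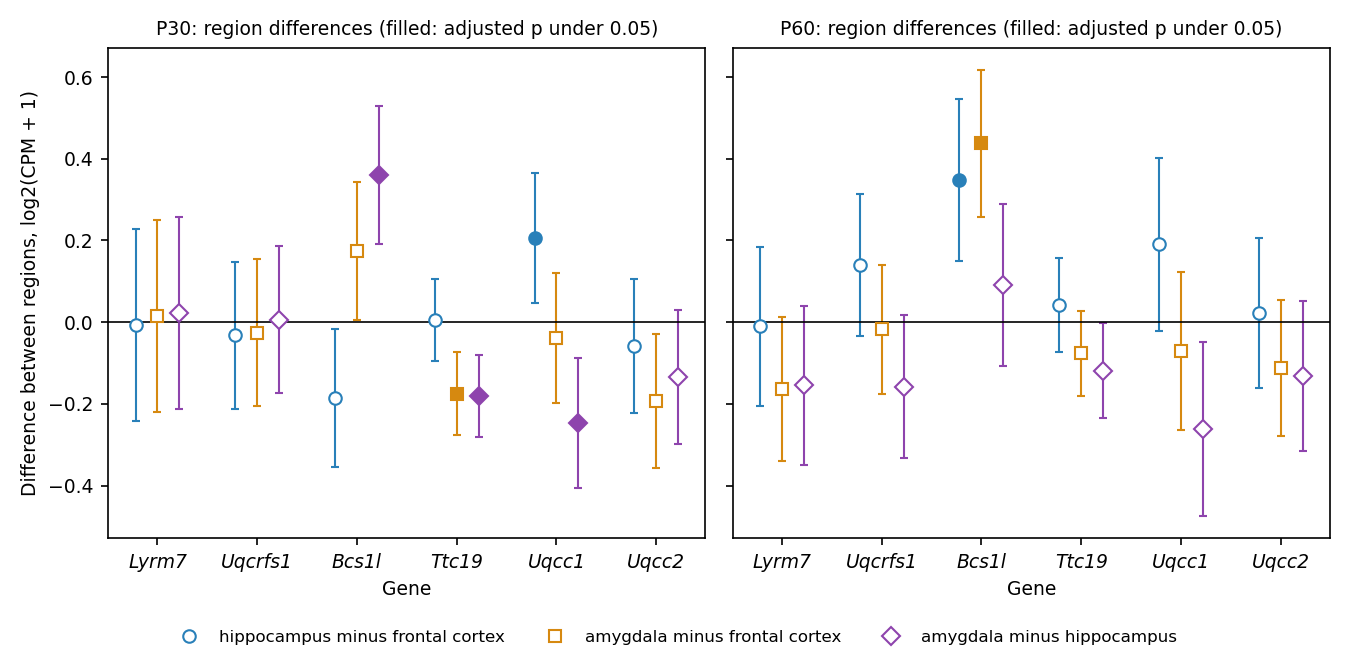
Differences between regions on the log2(CPM + 1) scale for the 6 genes at P30 and P60, over both genotypes; points are limma estimates, bars are 95% intervals and filled points have an adjusted p under 0.05. Bcs1l has the filled points farthest from 0, at 0.36, 0.44 and 0.35, and Lyrm7 and Uqcrfs1 have none.

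Levels of different genes were set beside each other per kb of exon. Exon length was the union over all annotated transcripts, 5050 bases in Lyrm7, 6044 in Uqcc1 and 1363 in Uqcrfs1. With lengths of single transcripts the ratios, and the order of Lyrm7 and Uqcc1, could differ, which was not tested. Lyrm7 had 3.34 to 4.68 CPM per kb over the 7 KO groups and 1.48 to 2.07 over the 7 WT groups. Its client Uqcrfs1 had 13.2 to 19.7 CPM per kb in KO and 13.5 to 18.6 in WT, so that Uqcrfs1 stood at 2.83 to 5.30 times the level of Lyrm7 in KO groups and at 7.16 to 11.7 times in WT groups. Lyrm7 was the lowest of the 6 in all 7 WT groups and in KO E14 cortex, and it lay above Uqcc1 in the other 6 KO groups. Uqcc1 had 3.05 to 4.07 CPM per kb in KO and 2.92 to 4.21 in WT, and Bcs1l 5.39 to 10.0 in KO and 5.42 to 8.81 in WT. Ttc19, at 15.45 to 25.49 in KO and 13.97 to 25.15 in WT, and Uqcc2, at 17.9 to 27.6 in KO and 16.9 to 28.6 in WT, were the highest together with Uqcrfs1, and the ranges of these 3 genes overlapped.

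Levels over age are described on 1 joint scaling of the recovered reads, a trimmed mean of M-values, with no test. Ttc19 had means of 61.9, 118 and 113 CPM at E14, P30 and P60 in KO and 56.9, 114 and 117 CPM in WT, and in both genotypes every later library was above every E14 library. Lyrm7 had 14.45, 22.47 and 20.96 CPM in KO and 6.52, 9.30 and 10.1 CPM in WT at these ages. All later KO libraries were above the E14 KO libraries, while the WT ranges of E14 and the later ages overlapped. The share of all tested genes with every later library above every E14 library is not given here, so nothing further is read from this order. Uqcc2 had 14.1, 16.5 and 23.3 CPM in KO and 12.3, 17.5 and 22.6 CPM in WT. Bcs1l went the other way, with 18.9, 14.2 and 15.3 CPM in KO and 16.81, 14.75 and 15.96 CPM in WT. Uqcrfs1 and Uqcc1 stayed within 0.952 to 1.21 times their E14 means at P30 and P60 in both genotypes. The E14 samples are whole cortex and the later ones 3 regions, so age and tissue cannot be told apart.

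The rest of complex III and its iron-sulfur supply held no gene called between KO and WT. Of the 9 other subunits of the complex, 0 were called in any setting (7 of 63 tests at an unadjusted p under 0.05). Of 6 other assembly genes 0 were called (3 of 42), with 0 calls by voom in both. Among all tested genes 0.0158% to 0.0489% were called. An unadjusted p under 0.05 was reached by 371 of 18985 in P30 frontal cortex, the lowest share, to 1867 of 18985 in P30 amygdala, the highest. The largest differences of subunits were 0.45 for Uqcrq, a small subunit beside cytochrome b, in E14 cortex (SE 0.149, adjusted p = 1.00) and −0.34 for mt-Cytb, cytochrome b itself, in the P30 amygdala (SE 0.113, adjusted p = 0.315). The median difference of the 15 genes ran from −0.02 to 0.08 over the 7 settings, where that of all tested genes ran from −0.00 to 0.01.

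Other genes with the LYR motif were not called either. Of 9 tested, among them Lyrm4, which serves the iron-sulfur scaffold, and the complex I subunits Ndufa6 and Ndufb9, 0 were called in any setting (4 of 63 tests at an unadjusted p under 0.05, 0 calls by voom), and their differences ran from −0.37 to 0.44. Of 14 genes of iron-sulfur cluster synthesis and delivery, including the scaffold Iscu, the cysteine desulfurase Nfs1 and the co-chaperone Hscb, 0 were called (6 of 98 tests, 0 by voom), with differences from −0.49 to 0.52. Subunits of the other respiratory complexes gave 0 calls among 24 nuclear genes of complex I, 4 of complex II, 10 of complex IV and 10 of the ATP synthase. There 4 of 168, 2 of 28, 0 of 70 and 2 of 70 tests had an unadjusted p under 0.05, and voom was not run on these. The shares of all tested genes given for complex III apply to these lists too, and nothing is read from the counts.

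Between regions these lists did hold calls. Among the other complex III subunits 3 of 9 were called for hippocampus minus frontal cortex at P30, where 43.3% of all tested genes were, with Uqcrb, a small matrix-side subunit, 0.39 higher (SE 0.0752, adjusted p = 0.000138) and Uqcrc1, a core subunit, lower, at −0.26 (SE 0.0481, adjusted p = 7.82e-05). At P60, where 32.8% of all tested genes were called, 4 of 9 were higher in the hippocampus, with Uqcrb at 0.54 (SE 0.0880, adjusted p = 0.000107) and Cyc1, a haem-carrying subunit, at 0.29 (SE 0.0828, adjusted p = 0.0104). Lyrm9, a LYR-motif relative of Lyrm7, was higher in the amygdala than in the hippocampus by 1.00 at P30 (SE 0.0799, adjusted p = 1.58e-10) and by 0.77 at P60 (SE 0.101, adjusted p = 1.32e-05), while Lyrm7 differed by 0.02 and −0.15 in the same comparisons. Of the 24 complex I genes 10 and 13 were higher in hippocampus than in frontal cortex at P30 and P60, and 0 were lower, where the same background shares of 43.3% and 32.8%, in either direction, apply. Nothing is read from these counts about the lists.

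The genes around Lyrm7 on chromosome 11 did hold calls between KO and WT. Within 500 kb of Lyrm7 the annotation has 29 genes that the tables list, of which 14 were tested at E14 and 15 at P30 and P60. The nearest gene toward Mir146 is the antisense RNA gene Lyrm7os, 1.90 kb away, which was not among those tested. The nearest protein-coding gene on that side is Cdc42se2, 39.2 kb away, which encodes an effector of Cdc42, and on the other side it is Hint1, a nucleotide-binding hydrolase, 5.47 kb away. Tnip1, an inhibitor of NF-κB signalling, lies 49.9 kb away and Gm2a, the GM2 ganglioside activator of lysosomes, 237 kb away.

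Cdc42se2 was lower in KO in the hippocampus of both ages. At P60 it had 54.21 and 49.40 CPM in KO, against 90.83, 92.37 and 82.92 CPM in WT, a difference of −0.76 (SE 0.102, adjusted p = 0.00264, and 0.150 without KO replicate 2). At P30 the difference was −0.60 (SE 0.0903, adjusted p = 0.00202). In the P30 amygdala the groups overlapped, at 76.74, 97.90, 84.13 and 80.01 CPM in KO against 76.85, 76.90, 92.43 and 89.15 CPM in WT. Its KO to WT ratio ran from 0.584 to 1.01 over the 7 settings, and all KO libraries were below all WT libraries in 4.

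Hint1 had 80.88, 74.62, 75.49 and 76.42 CPM in KO P30 amygdala, against 56.16, 55.48, 52.50 and 55.26 CPM in WT, a difference of 0.48 (SE 0.0719, adjusted p = 0.00256). The groups did not overlap there or in E14 cortex, where the difference was 0.42 (SE 0.105, adjusted p = 1.00). They overlapped in the other 5 settings. Tnip1 had 33.25, 36.35, 40.06 and 37.38 CPM in KO P60 frontal cortex, against 18.94, 22.27 and 22.95 CPM in WT, a difference of 0.76 (SE 0.105, adjusted p = 0.00354). All KO libraries of Tnip1 were above all WT libraries in 6 of 7 settings, with ratios from 1.28 to 1.72, although this was the only setting called, and without WT replicate 1 the adjusted p was 0.0691.

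Gm2a had KO to WT ratios from 0.661 to 0.880, with all KO libraries below all WT libraries in 6 of 7 settings. That order of the libraries occurred in 0.511% of all tested genes in E14 cortex and in up to 5.56% in P60 hippocampus. It was called in the P30 hippocampus, with 44.09, 50.36, 40.45 and 47.99 CPM in KO against 67.66, 70.03, 77.59 and 61.22 CPM in WT (−0.59, SE 0.0777, adjusted p = 0.000316). It was also called in the P30 amygdala (−0.42, SE 0.0777, adjusted p = 0.0426), a call that stood in 6 of 18 settings of the processing. The called neighbours differed in direction, with Tnip1 and Hint1 higher and Cdc42se2 and Gm2a lower in KO. The other 11 neighbours held 0 calls (13 of 76 tests at an unadjusted p under 0.05, 0 by voom). Among all tested genes such a p was reached by 371 of 18985 in P30 frontal cortex to 1867 of 18985 in P30 amygdala.

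**Figure D5:**
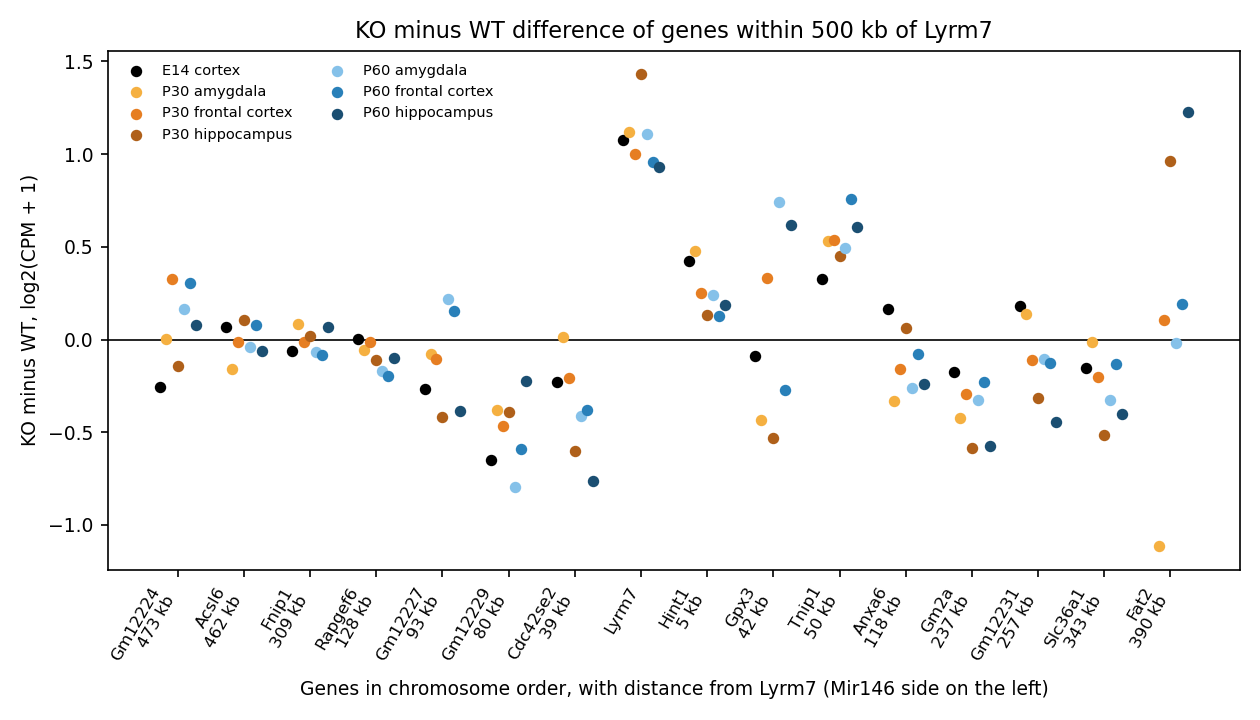
KO minus WT differences on the log2(CPM + 1) scale for Lyrm7 and the tested genes within 500 kb of it, in chromosome order with their distance from Lyrm7 in kb, for the 7 settings. Lyrm7 lies at 0.93 to 1.43, with Tnip1 and Hint1 above 0 and Gm2a, Gm12229 and Slc36a1 below 0 in all 7; the wide scatter of Fat2, −1.11 to 1.22, has an SE of up to 0.604 and no call.

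The genes whose levels followed Lyrm7 most closely were sought by Pearson's r of log2(CPM + 1) over the 9, 24 and 19 libraries of E14, P30 and P60, averaged over the 3 tables, among 16710 genes tested in all 3. The libraries share genotype, region and depth, so r is a description. KO and WT libraries entered together, and Lyrm7 was selected for its gap between them. Genes with a gap of their own can therefore rank high, and the order for Lyrm7 in part restates that selection. The closest was Tnip1 (mean r 0.78, with 0.74, 0.74 and 0.86 at E14, P30 and P60). Next were the pseudogene Gm5913 on chromosome 8 (0.72), whose sequence closely copies G3bp1 on chromosome 11, 0.609 Mb from Lyrm7, and Slu7, a splicing factor gene 59.3 kb from Mir146 (0.66). Of the other 5 members Ttc19 stood highest in this order, at place 473 with a mean r of 0.28, and Uqcrfs1 lowest, at −0.02.

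The other members had other closest genes, at mean r of 0.58 for Uqcrfs1 with Ddt, 0.71 for Bcs1l with Glrx2, 0.80 for Ttc19 with Frrs1l, 0.73 for Uqcc1 with Snx30 and 0.63 for Uqcc2 with Mbnl1. Among the members themselves, after the mean of each group was taken away, Lyrm7 and Ttc19 had r of 0.12 at E14, 0.47 at P30 and 0.50 at P60. Uqcrfs1 and Uqcc1 had 0.58, 0.67 and 0.01 at these ages, and Uqcrfs1 and Uqcc2 had 0.34, 0.09 and 0.51.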

How the data were processed

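Gene expression was measured by poly-A RNA sequencing in 52 libraries of mouse brain. Per the labels' protocols the kit was strand-specific and reads were paired. The submitters' processing notes name edgeR, DESeq, limma and build mm9 without a role, and the aligner and counter were not given in the sources used here. The authors deposited 1 table per age of CPM values on an effective library size, with decimal commas, a unit entered here as other. Steps of 1 read could be read off within 0.1 read for at least 99.9% of values above 0, which gave whole reads. IDs were matched to GENCODE M21 for 48144 of 48526.

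Members and gene lists were chosen with earlier results of these data known. A gene needed 15 reads in a table and the equivalent of 10 reads at median depth in at least the number of libraries of its smallest group, which all 6 members passed. limma-trend (limma 3.58.1, R 4.3.3, robust) was fitted on log2(CPM + 1), a scale that understates changes of low genes, with all groups of an age in 1 fit, Benjamini-Hochberg adjustment over all tested genes and a threshold of 0.05. Tests stayed within a table, since each was normalised separately. The planned count models were not run, since the deposited values are normalised and entered in this unit, and voom on the recovered reads was an alternative. The scripts were tested on simulated data. Sex was assigned from Xist and Y-linked genes. Named list genes are those called and the largest difference per list, and neighbours are those called and the 2 adjacent genes. Sequence similarity was searched with blastn 2.17.0.

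Libraries are labelled as separate samples and, per the series' design text, mice had different mothers, and whether each is 1 animal is not stated, so p-values measure the spread between these samples. No pair of replicates agreed within sampling noise (chi-square per gene of 2.31 to 23.7 over 74 pairs). Same-numbered KO and WT libraries deviated together in the P60 amygdala (r of 0.210 to 0.321 in 3 pairs), and there the replicate block changed no call of a member. The 2 pairs of the P60 hippocampus had r of 0.496 and 0.624, and 7 of 8 pairs of P60 exceeded 0.1. In all 8 pairs the KO and the WT library had the same assigned sex, so shared number and shared sex cannot be told apart. Across regions, same-numbered P60 amygdala and frontal cortex libraries had r of 0.109 to 0.213 in KO and 0.150 to 0.182 in WT, and the region tests treat libraries as separate. With the block the counts of members called between regions were the same.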

Additional observations from a re-analysis of the deposited data

Results flagged for a closer look

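Lyrm7 in replicate 4 of KO E14 cortex had 15.02 CPM from 122 reads and lay apart from the other 4 KO libraries, which had 16.90 to 17.49 CPM. Its gap to the nearest of them was 0.761 of the range of the group. It remained above the highest WT library of that age, at 8.27 CPM. Of 60 combinations of gene and group examined in this way this was the only such case, where 3 would be reached at 1 in 20.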

How the results depend on the processing

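Lyrm7 lay at 0.84 to 1.58 on the log2 scale in all 116 fits. Its direction could hardly change, since all KO libraries lay above all WT libraries in all 7 settings. This range therefore describes the size only. The count of the other 5 genes called between KO and WT was 0 under all alternatives run. Those were pseudocounts of 0.1 and 0.5, no filter, voom, plain CPM, sex as a covariate, the libraries of 1 region, each library left out, the replicate block and, chosen after seeing the data, both WT replicates that stood apart left out. With the replicate block Lyrm7 was at 1.07 in E14 cortex, 1.12, 1.00 and 1.43 in P30 amygdala, frontal cortex and hippocampus, and 1.09, 0.92 and 1.00 in those regions at P60, and the block changed no count of members called. edgeR and DESeq2 on recovered reads were not run. Of 404 alternatives to main results 381 gave the same call, 11 were weaker, 12 stronger and 0 reversed. Of 1767 alternatives for single genes 1718 gave the same call and 0 reversed.

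The counts of members called between regions moved. For hippocampus minus frontal cortex at P30, 1 became 0 with no filter, among WT libraries and without both replicates that stood apart, and 0 to 2 with 1 library left out. For amygdala minus frontal cortex at P30, 1 became 2 by voom and without both, 0 among WT libraries, and 1 to 2 with 1 library left out, through Uqcc2. Among WT libraries the 3 calls of amygdala minus hippocampus at P30 and the 1 of hippocampus minus frontal cortex at P60 became 0, where fewer samples entered. Amygdala minus hippocampus at P60 had 0 to 1 with 1 library left out, Uqcc1 without KO amygdala replicate 3, WT amygdala replicate 1, KO hippocampus replicate 1 or WT hippocampus replicate 1. Bcs1l, not called for hippocampus minus frontal cortex at P30 (−0.19), was called without replicate 4 of KO or WT frontal cortex or WT hippocampus replicate 2. The cause was not tested. With a KO hippocampus library of P60 left out, the lone KO sample is assumed to vary like the other groups. Under the replicate block the P30 neighbours lost their calls (Hint1 adjusted p = 0.407), while labels do not pair these animals and 3 of 12 same-numbered pairs of P30 had r over 0.1. Lyrm7 rested on as few as 25 reads, in WT P30 hippocampus replicate 3, which limits the precision of its level there.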

Other observations

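Beside Lyrm7, 16 genes were called between KO and WT in at least 1 of the 7 comparisons, in 30 calls. Of these genes 8 lay on chromosome 11, between 43.4 and 55.1 Mb, and the gene of miR-146a itself is at 43.4 Mb. Chromosome 11 holds 7.22% of the 20871 other genes tested. Pttg1, 9930111J21Rik2, Olfr1372-ps1 and Kif3a were on it besides the 4 called neighbours of Lyrm7. Pttg1, the securin of sister chromatid separation, was called in all 7 comparisons, lower in KO in 6 and higher in 1. The strain of the animals is not given in the sources used here.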
